A study of Homo sapiens with 4 samples.

Results

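Expression of 10 genes known from intestinal epithelium was examined in RNA sequencing of sorted populations from a cardiac differentiation of human embryonic stem cells (hESCs). The genes were CDX1, CDX2, VIL1, CDH17, MEP1A, MUC13, LGALS4, GPA33, FABP2 and MAB21L2. They were found by Ensembl identifier, and each of the 10 had a row among the 60234 genes of the count table. The NKX2.5:GFP line carries GFP in the NKX2-5 locus of 1 allele, so that fluorescence marks cells of the cardiac lineage. Cultures were differentiated as spin embryoid bodies with a cytokine cocktail that all groups shared, and RA-treated cultures received 1 µM retinoic acid (RA) from day 4 to day 7, while control (CTR) cultures received DMSO, the solvent, over the same days. Cells of both cultures were sorted by GFP at day 31 according to the series description, which gave the groups RA GFP-positive, RA GFP-negative, CTR GFP-positive and CTR GFP-negative. Every group is 1 library from 1 reporter line, and RA and CTR cells grew in separate cultures, so that an RA difference and a difference between cultures cannot be told apart. There is no replicate, no test between conditions was made, and every interval covers counting error only, at the 95% level.

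The lining of the intestine is an epithelium that derives from endoderm. CDX1 and CDX2 are homeobox transcription factors that pattern the posterior body and specify intestinal over gastric fate, and many genes of the intestinal surface are known CDX2 targets. VIL1 encodes villin, the actin-bundling protein of microvilli. CDH17 encodes the liver-intestine cadherin, MEP1A the alpha subunit of the brush border protease meprin A, and MUC13 a transmembrane mucin. LGALS4 encodes galectin-4, GPA33 the surface antigen A33, and FABP2 the intestinal fatty acid binding protein of enterocytes. MAB21L2 is a developmental gene of eye, limb and gut, known also from mesenchyme and neural tissue. MEP1A, MUC13 and MAB21L2 are also among the genes by which the KeyGenes classifier of the study recognises fetal intestine.

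Promoter sequences from RefSeq (GRCh38.p14) were found for 5 of the members, CDX2, MUC13, LGALS4, GPA33 and FABP2. The other 5, CDX1, VIL1, CDH17, MEP1A and MAB21L2, had no entry in that table. The 250 bases before the start of a gene are shown for 3 members that behaved differently in these libraries, CDX2 and MUC13, which were high in RA GFP-negative cells, and FABP2, which had no reads at all. All lie on the minus strand and are written 5′ to 3′ along the gene, from chr13:27969316-27969565 for CDX2, chr3:124934752-124935001 for MUC13 and chr4:119322139-119322388 for FABP2. Capitals mark matches on either strand to TTTAT, the core letters of CDX sites, and to CAAAGTCCA, a form of the HNF4 site.
CDX2: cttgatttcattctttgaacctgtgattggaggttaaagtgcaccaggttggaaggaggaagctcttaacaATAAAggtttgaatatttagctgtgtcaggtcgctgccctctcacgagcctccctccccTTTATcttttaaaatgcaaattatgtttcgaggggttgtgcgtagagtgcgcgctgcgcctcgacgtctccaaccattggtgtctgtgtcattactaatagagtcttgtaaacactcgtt
MUC13: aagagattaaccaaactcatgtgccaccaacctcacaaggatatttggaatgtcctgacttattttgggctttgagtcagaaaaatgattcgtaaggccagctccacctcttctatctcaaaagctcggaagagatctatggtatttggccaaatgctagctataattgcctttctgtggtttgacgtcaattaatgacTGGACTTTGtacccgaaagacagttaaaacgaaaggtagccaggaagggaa
FABP2: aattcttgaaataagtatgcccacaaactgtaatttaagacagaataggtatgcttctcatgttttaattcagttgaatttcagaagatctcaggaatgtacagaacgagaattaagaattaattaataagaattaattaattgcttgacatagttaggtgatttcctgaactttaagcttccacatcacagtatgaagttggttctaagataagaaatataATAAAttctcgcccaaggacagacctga
TTTAT matched 2 times before CDX2 and 1 time before FABP2, and not before MUC13, LGALS4 or GPA33, while 32.7% of 35116 human promoters of this length hold it. CAAAGTCCA matched before MUC13 alone among the 5, at 51 to 43 bases before the start, and 0.325% of the promoters hold it. AGATAA, which GATA factors bind, matched 1 time each before CDX2 and FABP2 (9.17% of promoters), and before CDX2 this match overlaps a TTTAT match. AGGTCA, the core of nuclear receptor sites (12.1%), and the HNF1 motif (0.0057%) matched in none of the 5. A match describes these letters only, and no match says nothing of a factor.

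The libraries had 28125727 reads (RA GFP-positive), 26222787 (RA GFP-negative), 28643091 (CTR GFP-positive) and 4371101 (CTR GFP-negative). Counts were scaled to CPM, the reads of a gene per 1000000 reads of a library, with trimmed mean of M values (TMM) factors. A floor of 3 reads, set against a count of 0 where a fold is given as "at least", corresponded to 0.639 CPM in the shallow CTR GFP-negative library and to 0.105 to 0.117 CPM in the others. The sort was visible in 7 cardiomyocyte genes, whose summed level was 15164 CPM (RA) and 17714 CPM (CTR) in GFP-positive cells and 379 CPM and 788 CPM in GFP-negative cells. Because the samples are bulk RNA, more cells of a type and more RNA per cell cannot be told apart in any level below.

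Both CDX genes were highest in RA GFP-negative cells. CDX2 (ENSG00000165556; chromosome 13 of GRCh37, 28535055 to 28543452, protein coding) had 445 reads there, or 17.3 CPM (interval 15.8 to 19.0). It had 7 reads (1.49 CPM, 0.599 to 3.07) in CTR GFP-negative cells, 8 reads (0.299 CPM, 0.129 to 0.589) in RA GFP-positive cells, and CTR GFP-positive cells had 0 reads. All 3 neighbouring steps in this order were larger than counting error. Between RA and CTR GFP-negative cells the ratio was 11.6 (5.6 to 29.1), a difference of 2.88 on the log2(CPM + 1) scale used for differences throughout, which understates the change of low genes. CDX1 (ENSG00000113722; chromosome 5, 149546341 to 149564121, protein coding) had 154 reads in RA GFP-negative cells, 15 in RA GFP-positive cells, 2 in CTR GFP-negative cells and 0 in CTR GFP-positive cells. Its level of 6.0 CPM in RA GFP-negative cells was 14.1-fold above the 0.426 CPM of CTR GFP-negative cells (3.84 to 117), a difference of 2.30. RA GFP-positive and CTR GFP-negative cells did not differ in CDX1 beyond counting error (ratio 1.32, 0.306 to 11.9). CDX2 was thus detected in every library but CTR GFP-positive, on few reads in CTR GFP-negative and RA GFP-positive cells.

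**Figure D1:**
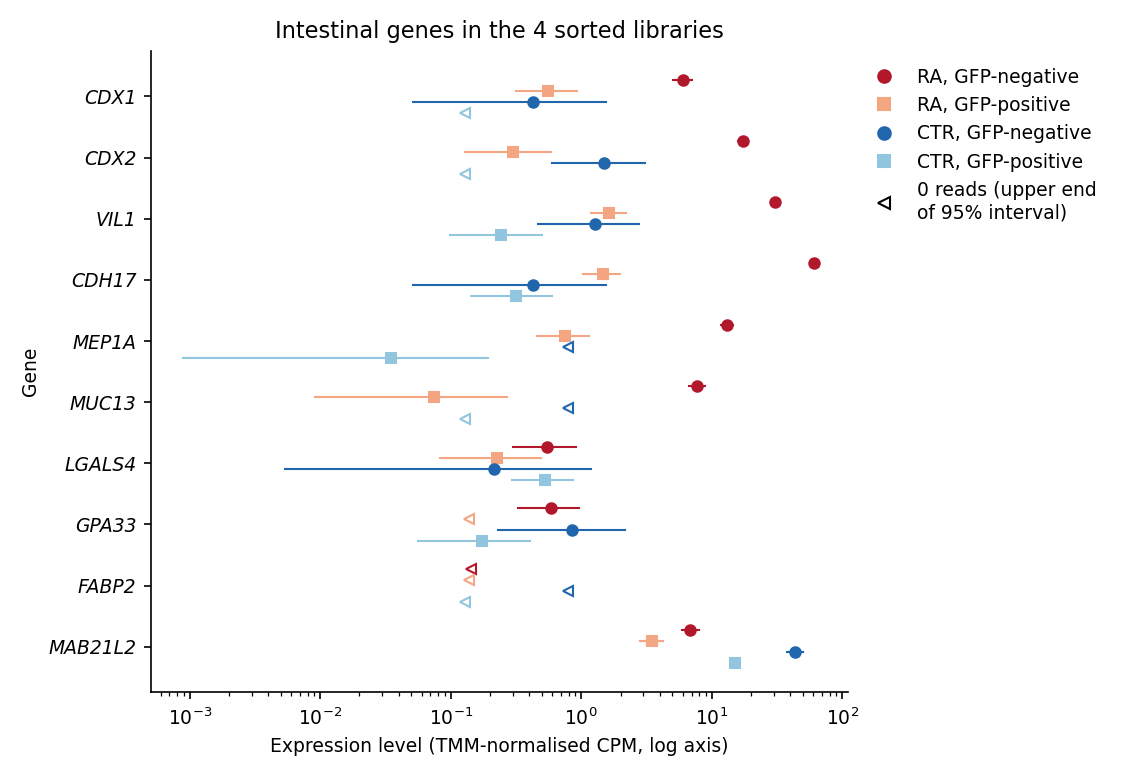
Level of each of the 10 genes in the 4 libraries (x axis, TMM-normalised CPM on a log axis; 1 library per point), with lines for exact Poisson 95% intervals and open triangles at the upper end of the interval where a library had 0 reads. CDX1, CDX2, VIL1, CDH17, MEP1A and MUC13 lie to the right in RA GFP-negative cells, at 6.0 to 60.3 CPM, whereas MAB21L2 is highest in CTR GFP-negative cells at 43.7 CPM.

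The cadherin and the microvillus protein of the epithelial surface were also highest in RA GFP-negative cells. CDH17 (ENSG00000079112; chromosome 8, 95139390 to 95229531, protein coding) was the most abundant member, with 1547 reads in RA GFP-negative cells, 39 in RA GFP-positive cells, 9 in CTR GFP-positive cells and only 2 in CTR GFP-negative cells. Its 60.3 CPM in RA GFP-negative cells (57.3 to 63.4) stood against 0.426 CPM in CTR GFP-negative cells, a ratio of 142 with a wide interval of 39.1 to 1170. At the RA level, the CTR GFP-negative library would have held 283 reads of CDH17 at its depth. The difference of 5.43 was the 7th highest among 18642 genes with at least 1 CPM in either GFP-negative library. VIL1 (ENSG00000127831; chromosome 2, 219283844 to 219318018, protein coding) had 790 reads in RA GFP-negative cells, 44 in RA GFP-positive cells, 6 in CTR GFP-negative cells and 7 in CTR GFP-positive cells. These were 30.8 CPM, 1.65 CPM, 1.28 CPM and 0.244 CPM, so that RA GFP-negative cells stood alone and the next pair did not differ beyond counting error (ratio 1.29, 0.547 to 3.70). The ratio of RA to CTR in GFP-negative cells was 24.1 (11 to 65.9). VIL1 shares 3045 of its 6891 exon bases with USP37 on the opposite strand in the annotation used here, and since strand was left out of the counting its level is uncertain.

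The protease and the mucin of the surface had nearly all of their reads in RA-treated cells. MEP1A (ENSG00000112818; chromosome 6, 46761126 to 46807515, protein coding) had 338 reads in RA GFP-negative cells (13.2 CPM, 11.8 to 14.7) and 20 in RA GFP-positive cells (0.748 CPM, 0.457 to 1.15). The CTR libraries held 1 read of it in total, which came from GFP-positive cells. MUC13 (ENSG00000173702; chromosome 3, 124624289 to 124672663, protein coding) had 197 reads in RA GFP-negative cells (7.68 CPM, 6.64 to 8.83), 2 in RA GFP-positive cells and 0 in either CTR library. At the RA level, 61.9 reads of MEP1A and 36.0 of MUC13 would have been counted in the shallow CTR GFP-negative library. Against the floor of 3 reads in that library, MEP1A was at least 20.6-fold and MUC13 at least 12-fold higher with RA, and with the counting error of both libraries the lower 95% limits of the ratios were 16.7 and 9.68. Their differences were 3.82 and 3.12.

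Other members were near the limit of detection everywhere. LGALS4 (ENSG00000171747; chromosome 19, 39292311 to 39303585) had 14 reads in RA GFP-negative, 6 in RA GFP-positive, 1 in CTR GFP-negative and 15 in CTR GFP-positive cells, all below 1 CPM. GPA33 (ENSG00000143167; chromosome 1, 167022073 to 167135716) had 15, 0, 4 and 5 reads in the same order of libraries, also below 1 CPM. No difference of either gene between RA and CTR was detectable at this depth, although GPA33 was higher in RA GFP-negative than in RA GFP-positive cells, where the ratio had a lower 95% limit of 3.74. In GFP-negative cells the ratio of RA to CTR was 2.56 for LGALS4 (0.390 to 108) and 0.686 for GPA33 (0.219 to 2.84). FABP2 (ENSG00000145384; chromosome 4, 120238405 to 120243293) had 0 reads in all 4 libraries, with upper 95% limits of 0.144 CPM in RA GFP-negative cells and 0.786 CPM in CTR GFP-negative cells. LGALS4, GPA33 and FABP2 were thus below 1 CPM in the library in which the 7 other members stood at 6.0 CPM or more.

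MAB21L2 (ENSG00000181541; chromosome 4, 151503303 to 151505845, protein coding) followed another order, with CTR above RA. It was at 43.7 CPM in CTR GFP-negative cells (205 reads, interval 37.9 to 50.1) and at 15.1 CPM in CTR GFP-positive cells (433 reads, 13.7 to 16.6). With RA it was at 6.86 CPM in GFP-negative cells (176 reads, 5.88 to 7.95) and at 3.48 CPM in GFP-positive cells (93 reads, 2.81 to 4.26). Each step of this order was larger than counting error. RA cells were lower than CTR cells 6.37-fold in the GFP-negative fraction (5.18 to 7.83) and 4.35-fold in the GFP-positive fraction (3.47 to 5.50), with differences of -2.51 and -1.85. These were the 42nd largest fall of 18642 genes and the 38th of 17465 genes. MAB21L2 lies inside the LRBA gene on the opposite strand and shares 1491 of its 2543 exon bases with LRBA exons, so its level is uncertain. GFP-negative cells were higher than GFP-positive cells in both treatments, 2.89-fold in CTR (2.43 to 3.42) and 1.97-fold with RA (1.53 to 2.56).

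**Figure D2:**
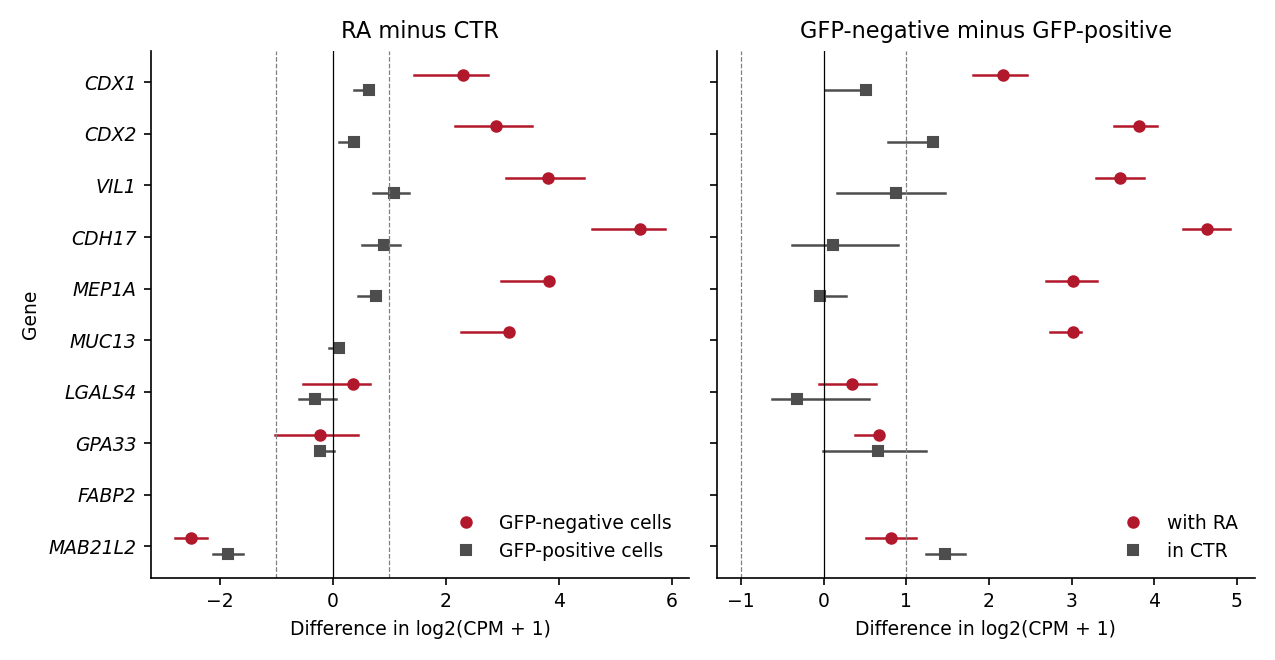
Differences of log2(CPM + 1) for the 10 genes (x axis), between RA and CTR in each sorted fraction (left) and between GFP-negative and GFP-positive cells of each treatment (right). Points are single pairs of libraries, lines are 95% intervals from counting error, dashed lines mark 2-fold, and FABP2 has no point because it had no reads; MAB21L2 is the only gene past 2-fold on the negative side, at -2.51 and -1.85.

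Set against all genes, a difference was counted where it reached 2-fold on the log2(CPM + 1) scale and the gene had at least 1 CPM in either library. In GFP-negative cells 6 of the 10 members, CDX1, CDX2, VIL1, CDH17, MEP1A and MUC13, were higher with RA, while 8.69% of 18642 genes were, and 1 member, MAB21L2, was lower, while 7.61% of genes were. The median difference over all 10 members was 2.59, beside 0.04 over all genes tested. The other 3 members did not reach 1 CPM in either library. Of the 6 higher members, CDX2 and VIL1 had 1 CPM in both libraries, and CDX1, CDH17, MEP1A and MUC13 entered the count through the RA library and so had to be higher there. In GFP-positive cells 3 members reached 1 CPM, and 1 of the 10, VIL1, was higher by 2-fold (5.09% of 17465 genes) and 1, MAB21L2, was lower (2.12%). VIL1 was below 1 CPM in CTR GFP-positive cells, so it entered the count only through the RA library and had to be higher. VIL1 differed there by 1.09, from 7 to 44 reads (ratio 6.74, 3.01 to 17.7), and CDH17 by 0.90, from 9 to 39 reads (ratio 4.64, 2.21 to 10.9). CDX1, CDX2 and MEP1A stayed below 1 CPM in both GFP-positive libraries, although their reads, 15, 8 and 20 with RA against 0, 0 and 1 in CTR, gave ratios whose intervals excluded equal CPM. The median over the 10 members in GFP-positive cells was 0.24, beside 0.01 over all genes tested.

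**Figure D3:**
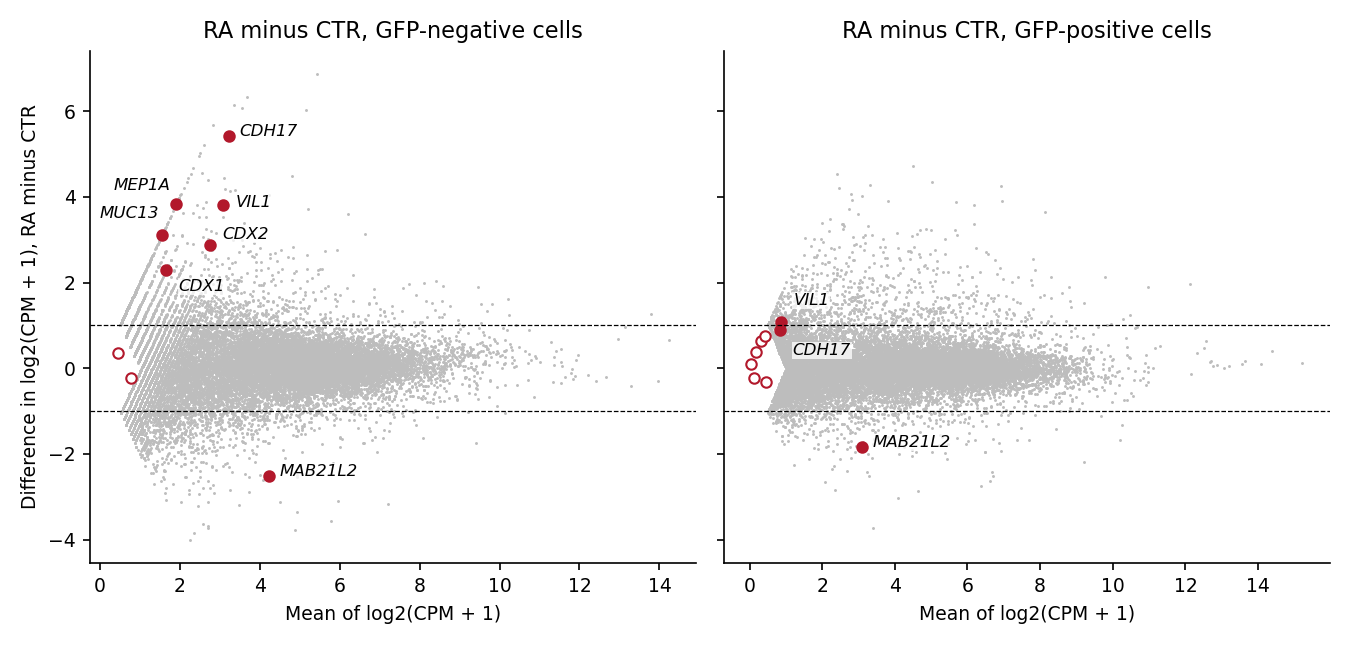
Difference between RA and CTR (y axis, log2(CPM + 1)) against the mean level (x axis, mean of log2(CPM + 1)) for every gene with at least 1 CPM in either library (grey points), in GFP-negative cells (left) and GFP-positive cells (right). Filled red points are members with at least 1 CPM and open red points are members below it; in GFP-negative cells CDH17 (5.43), MEP1A (3.82) and VIL1 (3.80) lie near the upper edge of all genes, and the dashed lines mark 2-fold.

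Within the RA culture, the levels of 8 members were higher in the GFP-negative fraction beyond counting error. The RA GFP-negative library also enters the comparison of RA and CTR, so that these values are not independent of those above. 6 of the 10 were higher by 2-fold in GFP-negative than in GFP-positive cells, while 14.1% of 18111 genes were, and none was lower (10.2% of genes). CDX1, CDX2, MEP1A and MUC13 entered this count only through the GFP-negative library and so had to be higher there, while VIL1 and CDH17 had 1 CPM in both. CDH17 was 41.3-fold higher (30.1 to 58.4), the largest such difference of all 18111 genes at 4.64. CDX2 was 58.0-fold higher (29.2 to 135), MUC13 was 103-fold higher (28.0 to 854), VIL1 18.7-fold (13.8 to 26.0), MEP1A 17.6-fold (11.2 to 29.2) and CDX1 10.7-fold (6.29 to 19.6). The counting intervals of the CDX2 and CDX1 ratios did not overlap, and these ratios rest on 8 and 15 reads in RA GFP-positive cells. With 1 library per fraction, whether the members share 1 common ratio was not tested. In CTR, CDX2 and MAB21L2 were 2-fold higher in GFP-negative cells (17.0% of 18786 genes), and no member was lower (14.1% of genes). CDX2 had 7 reads in CTR GFP-negative cells and none in CTR GFP-positive cells, a ratio with a lower 95% limit of 8.80, and it entered this count only through the GFP-negative library and had to be higher.

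Per kilobase of exon, CDH17 was also the highest member in RA GFP-negative cells, at 15.5 CPM per kb. CDX2 followed at 4.93, VIL1 at 4.47, MEP1A at 4.27, CDX1 at 3.38, MAB21L2 at 2.70 and MUC13 at 2.20 CPM per kb, and LGALS4 and GPA33 were at 0.245 and 0.198 CPM per kb. On this scale the level of CDX2 was thus close to that of VIL1 and MEP1A. The values of VIL1 and MAB21L2 are uncertain here, since their exon lengths include bases shared with USP37 and LRBA. The reads of RA GFP-negative cells on the 10 genes went to CDH17 in 42.1%, to VIL1 in 21.5% and to MAB21L2 in 4.79%, whereas MAB21L2 held 90.3% of them in CTR GFP-negative cells and 92.1% in CTR GFP-positive cells. Without MAB21L2, the 9 epithelial members summed to 136 CPM in RA GFP-negative cells, 5.01 CPM in RA GFP-positive cells, 4.69 CPM in CTR GFP-negative cells and 1.29 CPM in CTR GFP-positive cells. With MAB21L2, the 10 members summed to 143, 8.49, 48.3 and 16.4 CPM in the same order of libraries. In GFP-positive cells the sum of all 10 was thus lower with RA than in CTR.

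Further genes of the intestinal epithelium were read from fixed lists. Among 22 enterocyte genes, 12 had at least 1 CPM in either GFP-negative library, of which 9 were higher by 2-fold with RA, 1 was lower and 2 were neither, while 8.69% of all genes were higher. Of the 9, SI, FABP1, RBP2, CDHR2, CDHR5 and A1CF were below 1 CPM in CTR, entered the count only through the RA library and so had to be higher. The genes of highest level were USH1C, a scaffold protein of microvilli, at 21.4 CPM with RA and 2.77 CPM in CTR (ratio 7.71, 4.47 to 14.6), the aminopeptidase ANPEP at 20.5 CPM and 8.94 CPM, and CDHR5, a cadherin that links microvilli, at 20.3 CPM and 0.852 CPM (ratio 23.9, 9.27 to 88.0). PRAP1 was the lower gene, at 1.05 CPM with RA and 3.62 CPM in CTR. SI, the sucrase-isomaltase of the mature brush border, had 81 reads with RA and 0 in CTR GFP-negative cells, a ratio with a lower 95% limit of 3.93. MEP1B, the beta subunit partner of MEP1A, had no reads in any library, nor had KRT20 and TM4SF20. In GFP-positive cells 7 of the 22 genes had at least 1 CPM in either library, and none of these 7 was past 2-fold on the log2(CPM + 1) scale, although the CPM ratio of ANPEP was 2.89 (1.70 to 5.10). The median difference of the list was 0.51 in GFP-negative cells and 0 in GFP-positive cells.

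Genes of secretory cells were low. Of the 12 with a row, out of 13 listed, 6 had at least 1 CPM in either GFP-negative library. Of these 6, 4 were higher by 2-fold with RA in GFP-negative cells (8.69% of all genes). No gene of the list reached 1 CPM in CTR, so the 4 entered the count through the RA library and none could have been counted as lower. AGR2, a disulfide isomerase of mucus-secreting cells, was at 11.5 CPM with RA, against 0.639 CPM in CTR (ratio 18, 6.10 to 87.8). CHGA, of enteroendocrine cells, was at 5.96 CPM and 0.426 CPM, TFF3, a goblet cell peptide, had 123 reads and 0, and CLCA1 98 reads and 0. MUC2, the gel-forming mucin of goblet cells, had 23 reads with RA and 0 in CTR and stayed below 1 CPM. Of 7 stem cell genes, OLFM4 (153 reads and 0), ASCL2 (36 and 0) and RNF43 (324 and 25) were higher by 2-fold in GFP-negative cells. None of the list was lower, while 8.69% of all genes were higher and 7.61% lower. OLFM4 and ASCL2 entered only through the RA library. The stem cell genes of highest level, SMOC2, EPHB2, AXIN2 and LGR5, differed by 0.61, -0.17, -0.50 and 0.67 there. In GFP-positive cells SMOC2 and LGR5 were the 2 genes of the list past 2-fold, with differences of 2.57 and 2.32. Of all 17465 genes tested there, 5.09% were higher by 2-fold. In GFP-positive cells LGR5, the receptor of R-spondins, was at 11 CPM with RA, against 1.40 CPM in CTR.

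Regulators of intestinal epithelium were higher by 2-fold with RA in 8 of 12 genes in GFP-negative cells (8.69% of all genes), and none was lower (7.61%). Of the 8, ELF3 and SOX9 had 1 CPM in both libraries, and the others entered only through the RA library and so had to be higher. The median difference was 1.78 in GFP-negative cells and 0.47 in GFP-positive cells, where 7 of the 12 had at least 1 CPM. Of these 7, 2 were higher (5.09% of all genes), SOX9 with 1 CPM in both libraries and FOXA1 through the RA library only. HNF4A, a nuclear receptor of gut and liver epithelium, was at 17.8 CPM with RA, against 0.639 CPM in CTR GFP-negative cells (ratio 27.9, 9.50 to 136), and FOXA1 at 19.1 CPM and 0.426 CPM (ratio 44.9, 12.4 to 372). ISX, an intestine-specific homeobox factor, had 101 reads with RA and 2 in CTR GFP-negative cells and none in GFP-positive cells. FOXA2, a pioneer factor of endoderm, had 240 reads with RA and 0 in CTR GFP-negative cells, a ratio with a lower 95% limit of 11.8. The genes of highest level in RA GFP-negative cells were GATA4 and GATA6, which heart and gut share, with differences of -0.15 and 0.77, and the epithelial factors ELF3 and KLF5, with differences of 1.16 and 0.74. HNF4A, FOXA1, ISX and FOXA2, like SI, MUC2 and the 3 stem cell genes named first, were outside the rule for naming genes and were picked after their values had been seen.

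**Figure D4:**
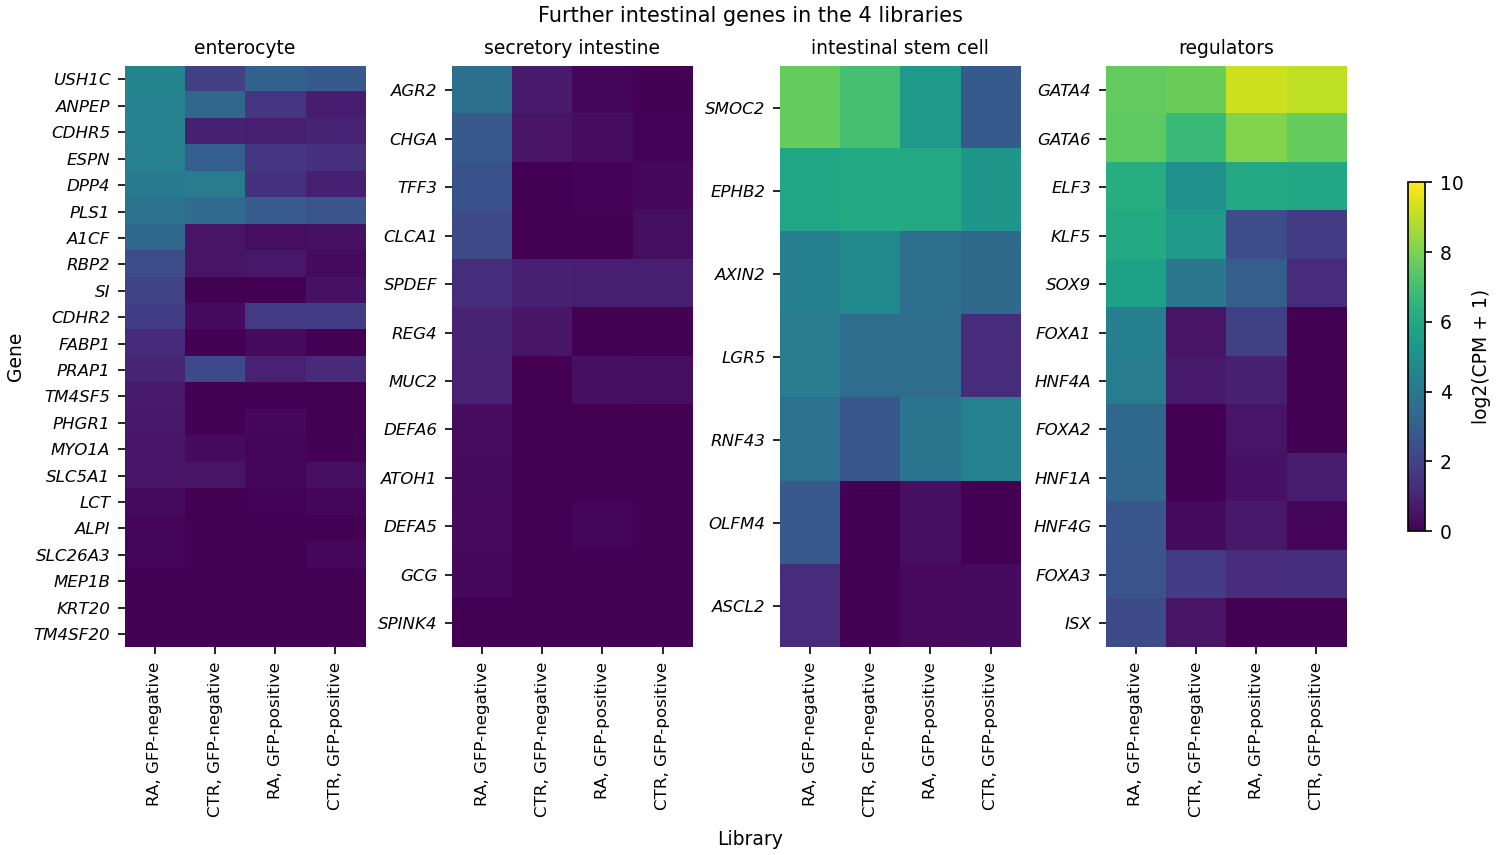
Level, as log2(CPM + 1) on the colour scale from 0 to 10, of the further enterocyte, secretory, stem cell and regulator genes (rows, ordered by the level in RA GFP-negative cells) in the 4 libraries (columns). The RA GFP-negative column is brighter for CDHR5, AGR2, OLFM4, HNF4A and FOXA1, while GATA4 and GATA6 are brightest in GFP-positive cells.

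Markers of other tissues were higher, lower or mixed where the intestinal genes were higher. Among all 18642 genes compared between RA and CTR GFP-negative cells, 8.69% were higher and 7.61% lower by 2-fold. General epithelial genes summed to 2696 CPM in RA and 1606 CPM in CTR GFP-negative cells, with 3 of 7 higher by 2-fold. The most abundant of them, the keratins KRT8, KRT18 and KRT19, differed by 0.64, 0.45 and 0.50, and CLDN4 was at 255 CPM against 20.2 CPM. Liver and yolk sac genes summed to 1030 CPM and 90.3 CPM, with 6 of 7 higher, led by AFP at 465 CPM against 2.98 CPM, and TTR was lower. Stomach and pancreas genes summed to 74.1 CPM and 35.1 CPM, with 5 of 7 higher and SOX2 lower, and PDX1 was at 13.9 CPM and 0.213 CPM. Of 5 kidney genes, both of those with at least 1 CPM were lower with RA, LRP2 at 150 CPM against 377 CPM and, by less than 2-fold on the log2(CPM + 1) scale, CUBN at 1.68 CPM against 3.62 CPM. All 9 eye genes were lower by 2-fold with RA in GFP-negative cells, from 764 CPM to 86.9 CPM in sum, and MAB21L1, the paralogue of MAB21L2 and named for that reason after its value had been seen, was at 3.27 CPM with RA, against 21.7 CPM in CTR. Gut mesenchyme genes summed to 212 CPM and 162 CPM in GFP-negative cells, with 3 of 7 higher and 1, NKX2-3, lower. Cardiomyocyte genes summed to 379 CPM with RA and 788 CPM in CTR GFP-negative cells, with 3 of 7 lower. Of the higher genes in these lists, APOB, GIF, MUC5AC, TFF2, PDX1, FOXF1 and BARX1 were below 1 CPM in CTR and entered the counts only through the RA library. NKX2-3 was below 1 CPM with RA, entered only through the CTR library and so had to be lower. The part of these cell types in the values of the 10 genes was not tested.

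**Figure D5:**
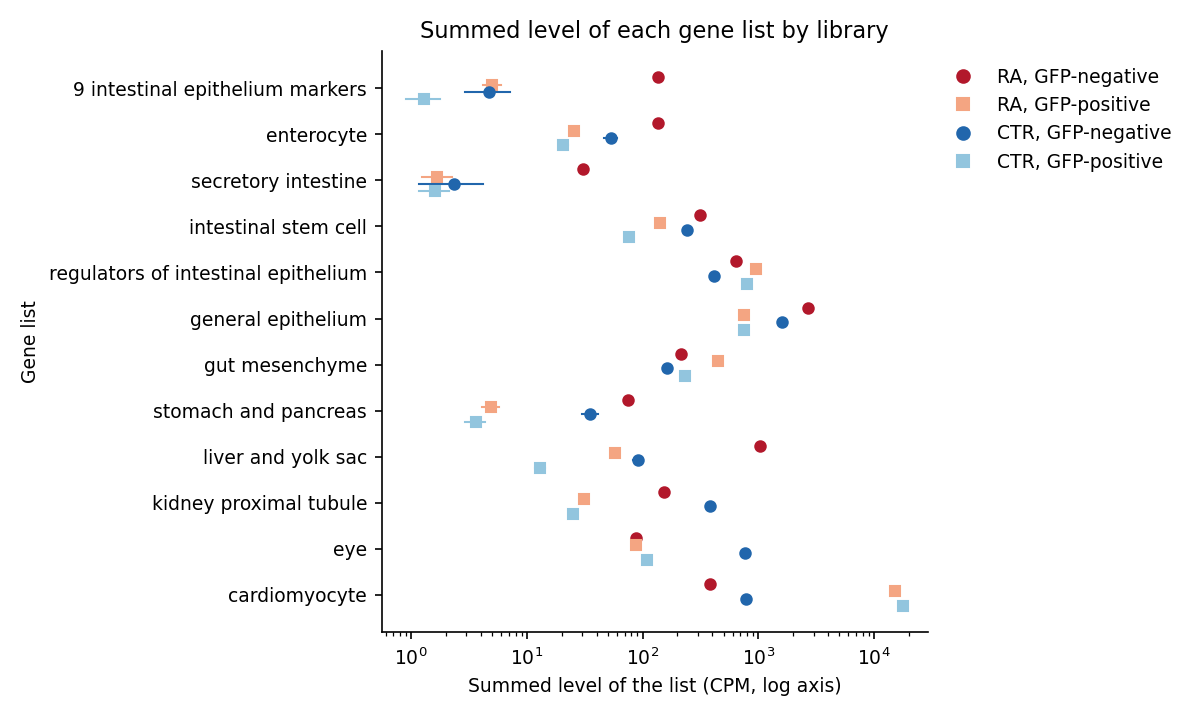
Summed level of each gene list (x axis, CPM on a log axis) in the 4 libraries, with exact Poisson 95% intervals as lines and 1 library per point. The 9 intestinal epithelium markers, the members without MAB21L2, sum to 136 CPM in RA GFP-negative cells and to 1.29 to 5.01 CPM elsewhere. With MAB21L2, the 10 members (not drawn) sum to 143 CPM in RA GFP-negative cells and to 8.49 to 48.3 CPM elsewhere. The eye genes sum to 764 CPM in CTR GFP-negative cells and to 86.9 to 110 CPM elsewhere.

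In RA GFP-positive cells the summed level of the 9 epithelial members was 3.67% of that in RA GFP-negative cells. The same share varied widely between lists. It was 5.55% for secretory intestine genes, 5.62% for liver and yolk sac genes and 6.56% for stomach and pancreas genes, but 18.7% for enterocyte genes, 20.3% for kidney genes, 28.1% for general epithelial genes and 44.9% for stem cell genes. The sums gave 101% for eye genes, 151% for regulators of intestinal epithelium and 213% for gut mesenchyme genes, but a few abundant genes carried them, such as GATA4 and GATA6 among the regulators and MITF among the eye genes. Gene by gene, 9 of 12 regulators and 5 of 9 eye genes were higher by 2-fold in RA GFP-negative than in RA GFP-positive cells, and 1 of each list was lower. Of 7 gut mesenchyme genes, 1 was higher and 3 were lower. Cardiomyocyte genes in RA GFP-negative cells reached 2.5% of their level in RA GFP-positive cells. Whether cells of the other fraction contributed to any of these levels was not tested.

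The genes whose pattern over the 4 libraries was most like that of a member were found by the distance between centred log2(CPM + 1) values, among 14114 genes with at least 5 CPM in a library. For CDX2 they were FGFR4 (distance 0.18), FGG (0.29) and TRPC6 (0.44). For MEP1A they were TFF1 (0.10), GIF, also called CBLIF (0.13), and POU5F1 (0.21), the last of which has near-identical pseudogenes and is uncertain. For MAB21L2 they were MIR9-1HG (0.64), NHLH2 (0.68) and STMN4 (0.69), all highest in CTR GFP-negative cells. With 4 libraries, such likeness is a description of these libraries alone.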

How the data were processed

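The deposited table holds raw read counts per Ensembl gene for 4 libraries, 1 for each sorted group. According to the study's methods, the authors used SICKLE for trimming, GSNAP for alignment to hg19 (customised, unique alignments only) and HTSeq (0.6.1p1) for counting without strand. For the Ensembl release, the version is not given in the sources used here. Because reads without molecular identifiers are not independent molecules, the intervals cover counting error only and understate the total error.

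From the counts, TMM factors were computed with edgeR 4.0.16 in R 4.3.3 over all 4 libraries, and values are CPM. Differences are of log2(CPM + 1). Levels have exact Poisson intervals and ratios exact Clopper-Pearson intervals, at 95%. A gene was counted as 2-fold apart only with at least 1 CPM in either library. Since every group has 1 library, no test was run. The calculations were checked on simulated counts.

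The 10 genes and the 11 further lists were chosen with earlier results of these data known. From a list, up to 4 genes of highest level in RA GFP-negative cells, and genes going the other way, were named. FCGBP was not analysed here, and 1 further list gene is not reported here. Gene positions are from GENCODE v44 lifted to GRCh37, and promoters from RefSeq on GRCh38.p14, a build the counts do not use. Alternatives were other scalings (including DESeq2 1.42.0 size factors), pseudocounts, folds, filters, thinning and libraries without mitochondrial genes.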

Additional observations from a re-analysis of the deposited data

Results flagged for a closer look

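Of the genes of the further lists, 10 differed between RA and CTR in one direction in GFP-negative cells and in the opposite direction in GFP-positive cells, each with a ratio whose counting interval excluded equal levels. Whether the fractions differ in this was not tested, since every group is 1 library. Values are differences of log2(CPM + 1), first in GFP-negative and then in GFP-positive cells. Higher and then lower with RA were the enterocyte gene SI (2.06 and -0.47), the goblet cell gene CLCA1 (2.27 and -0.36), the stem cell gene RNF43 (1.11 and -0.53), the keratin KRT19 (0.50 and -0.55) and the gastric claudin CLDN18 (3.20 and -0.51). Lower and then higher were GATA4 (-0.15 and 0.19), the gut mesenchyme genes NKX2-3 (-1.18 and 0.66) and WNT5A (-0.41 and 0.63), the endocytic receptor LRP2 (-1.33 and 0.33) and the myosin MYH6 (-1.0 and 0.06). None of the 10 intestinal epithelium genes was among them.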

How the results depend on the processing

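No paired analysis was possible because each group has 1 library and no result comes from a test. Of 88 alternative counts of the 10 genes, 80 stayed within 1.5 times the reported count, among them all of those between RA and CTR in GFP-negative cells (6 higher, 1 lower) and between the fractions with RA. In GFP-positive cells the count higher with RA went from 1 to 2 with a pseudocount of 0.25 CPM, and to 0 with a pseudocount of 5 CPM, at 4-fold and at a minimum of 5 CPM, and the count lower went from 1 to 0 at 4-fold. Between the CTR fractions the count higher went from 2 to 1 with a pseudocount of 5 CPM and at a minimum of 5 CPM, and to 0 at 4-fold. Over all genes, the share higher with RA in GFP-negative cells ranged from 1.56% at 4-fold and 2.5% with a pseudocount of 5 CPM to 11% with a pseudocount of 0.25 CPM. Among counts of the further lists, 84 of 88 stayed within 1.5 times. By library size alone, 1 general epithelial gene was higher with RA in GFP-positive cells (reported 2), and 5 cardiomyocyte genes were lower in GFP-negative cells (reported 3). After thinning to 4371101 reads, 1 enterocyte gene was lower and 1 stomach and pancreas gene was higher in GFP-positive cells (reported 0 for both). The sizes of the differences were less stable than the counts, since 192 alternative values of single genes stayed close to the reported one and 88 moved, mostly with the pseudocount. In GFP-negative cells the difference between RA and CTR ranged from 1.86 to 5.75 for MEP1A (reported 3.82), from 1.34 to 4.99 for MUC13 (3.12), from 3.59 to 6.48 for CDH17 (5.43) and from 1.02 to 3.21 for CDX1 (2.30). The difference of LGALS4 changed sign when thinned, from -0.32 to 0.27 between RA and CTR in GFP-positive cells and from 0.34 to -0.26 between the fractions with RA. The causes were not tested. In the shallow CTR GFP-negative library 3 reads correspond to 0.639 CPM, so that levels at or below this rest on 1 to 3 reads and their ratios have wide intervals.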
